A study of Mus musculus with 32 samples.

Results

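The serpins and the coagulation factors were followed in the mammary gland and liver of FVB mice. Genes were taken by symbol: every Serpin gene, every clotting factor symbol made of F and a number, and Fga, Fgb, Fgg, Plg, Plat, Plau, Proc, Procr and Kng1. This gave 44 of the 8251 genes measured by a probe set that names a single gene, each read from its brightest probe set over all 32 arrays. A further 5 genes, Serpina1a, Serpina1d, Serpinb9f, Serpinb9g and Serpinb9h, were named only by probe sets shared between genes and are not described. F2r, F8a and F11r matched by symbol only: F2r encodes a thrombin receptor, F11r a junctional adhesion molecule and F8a a protein named for its place within the factor VIII gene in humans.

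All animals were wild-type FVB females, and each of the 32 arrays held RNA from 1 tissue sample. Mammary gland on chow came from lactation day 9, lactation day 2, lactation day 1, pregnancy day 17 and pregnancy day 12, with 4 arrays per stage. At lactation day 10, 3 mammary arrays each came from diets labelled 40%, 16% and 8% fat, and 3 liver arrays from the 8% diet. Dams on 40% and 8% of energy from soy oil had been on chow until lactation day 5 and on the diet for 5 days. No source used here says how the 16% diet was given. The free-text descriptions of the mammary 16% and 8% arrays name 40% fat, so the groups follow the titles. The liver and mammary arrays on 8% fat may share animals, which the labels leave unmatched across tissues. Replicates are described as quadruplicates or as triplicate dams, so p-values measure the spread between these samples. In whole tissue, fewer cells of a type and less RNA per cell cannot be told apart.

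Serpins are a family of proteins that mostly trap and inactivate serine proteases by a change of shape. Antithrombin, heparin cofactor II and the protein Z-dependent inhibitor hold back clotting, antiplasmin holds back the breakdown of fibrin, and other members act in complement control, collagen folding or inside cells. The clotting factors, fibrinogen, plasminogen and many secreted serpins are made mainly by hepatocytes, whereas tissue factor, tissue plasminogen activator and the endothelial protein C receptor are made locally in many tissues.

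Values are log2 of normalized intensity. Precision is limited by the number of arrays, and levels are compared between groups for 1 probe set and not between genes. A line at the median of all values, an intensity of 18.6 or 4.22 in log2, was used as the lower limit for testing. A probe set was tested if its highest group mean over all stages, all diets or both tissues reached the line. A member could therefore be tested between stages that both lay below it. Where the mean of 1 group lay below the line, the change is given as a bound (at least N-fold), with that group's arrays raised to the line. Median intensity per array was 16.1 to 21.5. Of the 44 genes, 19 reached the line in at least 1 mammary group and 32 reached it in liver, 16 of these in liver alone. The 25 genes below the line in every mammary group were F10, F12, F13b, F7, F8, F8a, F9, Fga, Fgb, Kng1, Plau, Plg, Proc, Serpina1b, Serpina1c, Serpina1e, Serpina5, Serpina6, Serpinb1a, Serpinb2, Serpinb3a, Serpinb6c, Serpinb9e, Serpinc1 and Serpini1. The 9 that reached it in no group were F8a, Plau, Serpina5, Serpinb1a, Serpinb2, Serpinb3a, Serpinb6c, Serpinb9e and Serpini1.

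Between pregnancy and lactation the locally expressed serpins of the gland moved in different directions. Serping1, Serpinh1, Serpinf1, Serpinb6a and Serpina3n were lower on lactation day 9 than on pregnancy day 12, with log2 differences of -2.10 to -3.65, Serpinb9 was at least 2.31-fold lower, Serpinb5 was higher by 0.95, and a probe set of Serpinf2 was higher by 1.59. In limma with Benjamini-Hochberg adjustment over all 7189 probe sets tested, 17 of the 19 tested members were called between these stages, 8 higher and 9 lower. Of all probe sets tested, 77.6% were called in that comparison, 35.2% higher and 42.4% lower. The members' split was 4 higher and 10 lower after median centring and 4 higher and 8 lower after quantile normalization, with 15 members tested in each. The median difference was -0.28 over the 19 tested members and -0.13 over all probe sets tested. The 19 had to reach the line in at least 1 stage, so these counts do not describe the 44.

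**Figure D1:**
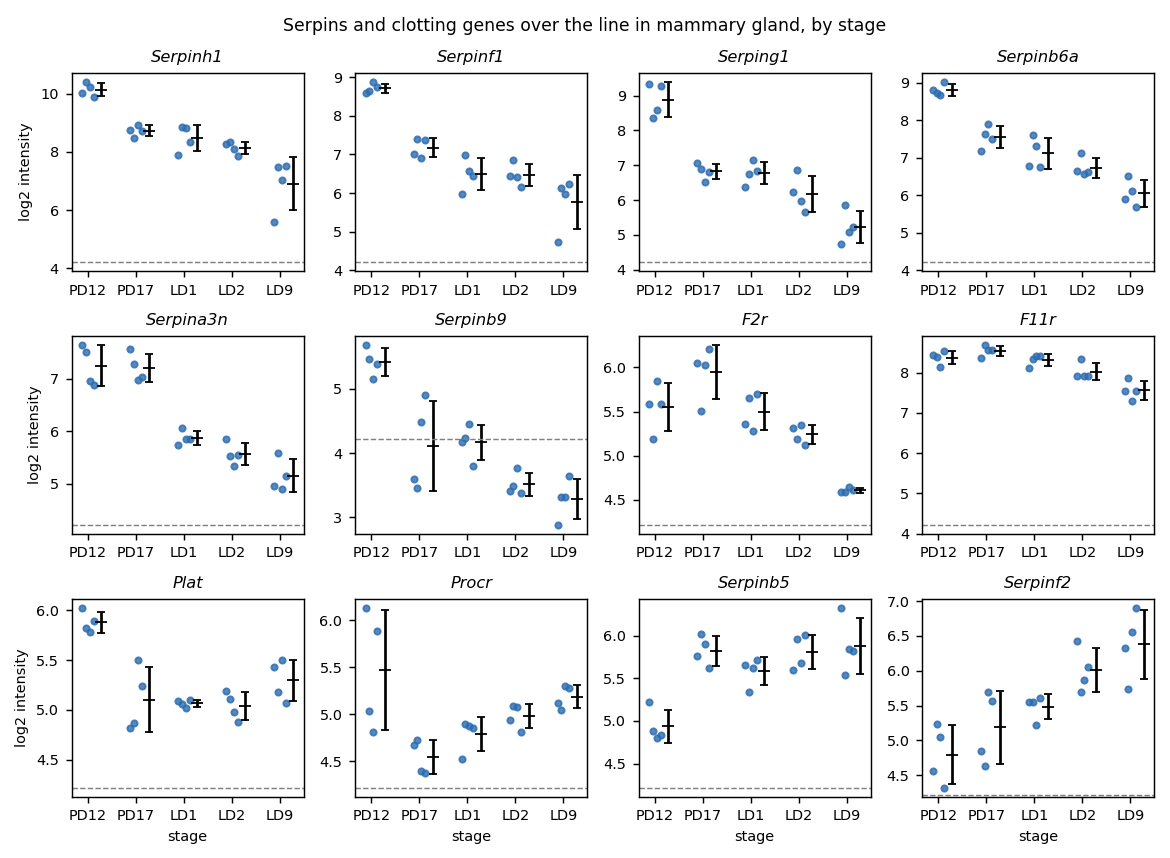
Log2 intensity of 12 genes in the mammary gland on chow at pregnancy days 12 and 17 (PD12, PD17) and lactation days 1, 2 and 9 (LD1, LD2, LD9). Points are arrays, 4 per stage, bars are mean ± SD, the dashed line is the limit for testing at 4.22, and each panel has its own vertical axis. The lowest Serpinh1 and Serpinf1 values are both those of lactation day 9 replicate 1.

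Serpinh1 encodes HSP47, the endoplasmic reticulum chaperone of collagen. It read 5.58, 7.48, 7.04 and 7.52 on lactation day 9, against 10.03, 10.39, 10.24 and 9.88 on pregnancy day 12. The groups were far apart, with lactation day 9 replicate 1 well below its group mates. The difference was -3.23 ± 0.31 (SE), or 9.38-fold lower on lactation day 9 (limma, adjusted p = 2.31e-08). Without replicate 1 of lactation day 9 the difference was -2.79 ± 0.21 (limma, adjusted p = 1.82e-09). Much of the fall lay within pregnancy: Serpinh1 read 8.77, 8.49, 8.94 and 8.72 on pregnancy day 17, which was 1.41 below pregnancy day 12 (limma, adjusted p = 0.00119).

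Serpinf1 encodes pigment epithelium-derived factor, a secreted serpin that inhibits vessel growth and no known protease. It read 4.73, 6.14, 5.98 and 6.24 on lactation day 9, against 8.59, 8.65, 8.87 and 8.74 on pregnancy day 12. All 4 later arrays lay below all 4 earlier ones, and the same replicate 1 was lowest again. The difference was -2.94 ± 0.26 (SE; limma, adjusted p = 9.4e-09), and -2.60 without that array (limma, adjusted p = 2.54e-09). On pregnancy day 17 it read 7.02, 7.41, 6.90 and 7.39, already below every array of pregnancy day 12 (mean difference -1.53, limma, adjusted p = 0.000118). A second Serpinf1 probe set averaged 2.97 to 3.64 over the stages, below the line in all of them.

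Serping1 encodes the C1 inhibitor, which blocks the first complement proteases, plasma kallikrein and activated factor XII. It read 4.75, 5.86, 5.09 and 5.24 on lactation day 9, against 9.34, 8.35, 8.58 and 9.28 on pregnancy day 12. No array of one stage came near the other. The difference of -3.65 ± 0.27 (SE) was the largest among the members in this comparison, 12.6-fold lower on lactation day 9 (limma, adjusted p = 7.58e-10). On pregnancy day 17 it read 7.07, 6.88, 6.53 and 6.82, below pregnancy day 12 in 4 of 4 arrays (difference -2.06, limma, adjusted p = 6.8e-06).

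Among the intracellular clade B serpins, Serpinb6a and Serpinb9 fell and Serpinb5 rose. Serpinb6a, a cytosolic inhibitor of serine proteases, read 5.91, 6.52, 6.10 and 5.68 on lactation day 9, against 8.82, 8.73, 8.68 and 9.02 on pregnancy day 12. The groups did not overlap, and the difference was -2.76 ± 0.21 (SE; limma, adjusted p = 8.16e-10). Pregnancy day 17 lay between them at 7.18, 7.64, 7.89 and 7.49, lower than pregnancy day 12 by 1.26 (limma, adjusted p = 7.23e-05). Serpinb9, an inhibitor of granzyme B, read 2.88, 3.31, 3.32 and 3.64 on lactation day 9, against 5.69, 5.46, 5.16 and 5.39 on pregnancy day 12. Its lactation day 9 values all lay below the line, so it was at least 2.31-fold lower on lactation day 9 (limma, adjusted p = 2.97e-07). On pregnancy day 17 Serpinb9 was split, with replicates 1 and 2 at 3.59 and 3.46 and replicates 3 and 4 at 4.49 and 4.91, all below pregnancy day 12.

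Serpinb5 encodes maspin, a serpin of breast epithelium that is not thought to inhibit proteases. It read 5.76, 6.02, 5.90 and 5.62 on pregnancy day 17, against 5.23, 4.88, 4.80 and 4.83 on pregnancy day 12. All 4 later arrays were higher, by a mean of 0.89 ± 0.15 (SE; limma, adjusted p = 0.000119). Later group means were 5.83 on pregnancy day 17, 5.59 on lactation day 1, 5.81 on lactation day 2 and 5.88 on lactation day 9. Lactation day 2 minus pregnancy day 17 was -0.01 (limma, adjusted p = 0.945).

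Serpina3n, a secreted acute-phase serpin related to human antichymotrypsin, fell between late pregnancy and early lactation. It read 7.56, 7.28, 6.97 and 7.04 on pregnancy day 17, against 7.65, 7.52, 6.97 and 6.88 on pregnancy day 12, and these groups overlapped throughout (difference -0.04, limma, adjusted p = 0.881). On lactation day 2 it read 5.85, 5.52, 5.35 and 5.55, below all 4 arrays of pregnancy day 17. That step was -1.65 ± 0.18 (SE), or 3.14-fold lower on lactation day 2 (limma, adjusted p = 1.12e-06). The 4 arrays of lactation day 1, at 5.74 to 6.06, were already below every pregnancy array. On lactation day 9 it averaged 5.15 ± 0.31 (SD, n = 4).

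In the plasminogen system, Plat encodes tissue plasminogen activator, which turns plasminogen into plasmin. It read 4.82, 4.86, 5.50 and 5.24 on pregnancy day 17, against 6.03, 5.82, 5.78 and 5.89 on pregnancy day 12. The groups did not overlap, and the difference was -0.78 ± 0.13 (SE; limma, adjusted p = 0.000132). On lactation day 9 it read 5.43, 5.18, 5.50 and 5.07, lower than pregnancy day 12 by 0.58 (limma, adjusted p = 6.09e-04), but after quantile normalization the difference was -0.29 and not called (limma, adjusted p = 0.0636). Plau, the urokinase activator, stayed below the line at 2.86 to 2.94 on pregnancy day 12 and 3.23 to 3.41 on lactation day 9. Plg and Serpinb2, an inhibitor of urokinase, were also below it in every mammary group.

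Serpinf2 encodes antiplasmin, the main inhibitor of plasmin. Its brighter probe set read 6.33, 5.73, 6.56 and 6.90 on lactation day 9, against 4.56, 5.24, 5.05 and 4.32 on pregnancy day 12. All 4 later arrays were above all 4 earlier ones, by 1.59 ± 0.26 (SE; limma, adjusted p = 1.94e-05). The other Serpinf2 probe set averaged 2.76 on lactation day 9 and 2.36 on pregnancy day 12, below the line at both. In liver the 2 probe sets also disagreed, at 5.28 for the one that is brighter in the gland and 11.53 for the other, so the rise in the gland rests on 1 of 2 probe sets that do not behave alike.

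Procr encodes the endothelial protein C receptor, which presents protein C for activation. It read 4.67, 4.73, 4.39 and 4.37 on pregnancy day 17, against 6.13, 5.04, 4.81 and 5.88 on pregnancy day 12. The groups did not overlap, although pregnancy day 12 was widely spread, and the difference was -0.92 ± 0.21 (SE; limma, adjusted p = 0.00157). On lactation day 9 Procr read 5.12, 5.04, 5.30 and 5.28, within the spread of pregnancy day 12 (difference -0.28, limma, adjusted p = 0.229). F3 encodes tissue factor, the trigger of clotting outside the vessels, and lay near the line in all stages. It read 4.43, 4.29, 4.49 and 4.24 on lactation day 9, against 4.20, 4.09, 4.06 and 4.27 on pregnancy day 12, with overlapping groups (difference 0.21, limma, adjusted p = 0.0742).

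F2r, the thrombin receptor, read 4.58, 4.59, 4.64 and 4.61 on lactation day 9, against 5.58, 5.19, 5.85 and 5.58 on pregnancy day 12. The later arrays were tightly grouped and all lower, by 0.94 ± 0.15 (SE; limma, adjusted p = 1.05e-05). Only the brightest of the 3 F2r probe sets was followed. Another averaged 4.27 on lactation day 9 and 4.20 on pregnancy day 12, and the remaining one was far below the line in all stages. The fall therefore rests on 1 of 3 probe sets. With their mean F2r did not reach the line and was not tested. F11r read 7.54, 7.86, 7.29 and 7.53 on lactation day 9, against 8.44, 8.39, 8.14 and 8.53 on pregnancy day 12. These groups did not overlap, with a difference of -0.82 ± 0.13 (SE; limma, adjusted p = 1.42e-05).

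The members called differed between the steps compared, which pass over lactation day 1. On pregnancy day 17 against pregnancy day 12, 12 of 19 tested members were called, 5 higher and 7 lower, where 45.1% of all probe sets tested were called, 18.4% higher and 26.7% lower. Of the 5 higher ones, F5, Fgg and Serpina10 had means below the line on both days. They were tested only because a lactation stage reached it. The 7 lower calls held in every scaling and with any 1 array left out. The higher ones were 1 without pregnancy day 12 replicate 4, and 2 without pregnancy day 17 replicate 2 or 4 or after quantile normalization. On lactation day 2 against pregnancy day 17, 11 of 19 were called, 6 higher and 5 lower, where 49.9% of all probe sets tested were called, 25.5% higher and 24.5% lower. Of the 6 higher ones, F2, Serpina12 and Serpind1 had means below the line on both days and were tested only through lactation day 9. F5 and Fgg were below it on pregnancy day 17 and reached it only in lactation. Their rises are bounds, at least 1.13-fold for F5 and at least 1.0-fold for Fgg. The split was 1 higher and 7 lower after median centring and 2 higher and 5 lower after quantile normalization. On lactation day 9 against lactation day 2, 6 of 19 were called, 1 higher and 5 lower, where 25.0% of all probe sets tested were called, 8.82% higher and 16.2% lower. The higher member of that last step was Serpina10, at least 1.17-fold higher, with lactation day 2 below the line. That call was lost in 12 of the alternatives, quantile normalization, median centring and the replicate block among them. The 5 lower members were F11r, F2r, Serpinb6a, Serping1 and Serpinh1, of which F11r and Serpinb6a each lost the call in 3 alternatives. Without replicate 1 of lactation day 9, 3 members were called in that step, and Serping1 was no longer among them (difference -0.78, limma, adjusted p = 0.0591). Without replicate 2 of lactation day 2, 2 members were called, and without replicate 2 of lactation day 9, 11 were.

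F2r, at its brightest probe set, read 5.32, 5.19, 5.35 and 5.12 on lactation day 2, against 6.05, 5.50, 6.03 and 6.21 on pregnancy day 17. Every later array was lower, with a mean difference of -0.70 (limma, adjusted p = 8.39e-04), and lactation day 9 was lower again (difference from lactation day 2 -0.64, limma, adjusted p = 0.00327). F11r read 7.91, 8.35, 7.92 and 7.91 on lactation day 2, against 8.36, 8.69, 8.55 and 8.55 on pregnancy day 17. Its replicate 2 of lactation day 2 nearly met the earlier stage, and the difference was -0.52 (limma, adjusted p = 0.00359). Serpinb6a read 6.64, 7.14, 6.55 and 6.62 on lactation day 2, below the 7.18 to 7.89 of pregnancy day 17 (difference -0.81, limma, adjusted p = 0.00352). Serpinf1 read 6.44, 6.85, 6.42 and 6.17 on lactation day 2, below the 6.90 to 7.41 of pregnancy day 17 by a small gap (difference -0.71, limma, adjusted p = 0.031). That call was lost in 7 of the alternatives, quantile normalization and leaving out any of 5 arrays among them. Serpinh1 read 8.26, 8.33, 8.09 and 7.86 on lactation day 2, and lactation day 9 lay below all of these (difference -1.23, limma, adjusted p = 0.006, and -0.79 without its replicate 1 with limma's adjusted p at 0.00985). Over all 5 stages, limma's F test called 18 of the 19, all but F3, where 87.5% of all probe sets tested were called.

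A set of 6 plasma protein genes reached the line only late, and only just. F2 (prothrombin), F5 (the cofactor factor V), Fgg (the fibrinogen gamma chain), Serpina10 (the protein Z-dependent inhibitor), Serpina12 (vaspin) and Serpind1 (heparin cofactor II) had group means of 4.27 to 4.47 on lactation day 9, against 3.36 to 3.78 on pregnancy day 12. All 6 were called higher in limma with Benjamini-Hochberg adjustment, where 35.2% of all probe sets tested were higher. They were taken as genes that reached the line only late, so their direction was fixed by that choice. With pregnancy day 12 below the line, the differences are bounds, at least 1.04-fold for F2 and Serpina12 and at least 1.19-fold for Serpina10. After quantile normalization or median centring F2, Fgg, Serpina12 and Serpind1 did not reach the line and were not tested. Serpind1 read 4.42, 4.04, 4.76 and 4.25 on lactation day 9, against 3.37, 3.47, 3.49 and 3.10 on pregnancy day 12. Serpina12 read 4.48, 3.96, 4.34 and 4.30 on lactation day 9, against 3.57, 3.56, 3.48 and 3.26 on pregnancy day 12. All 4 later arrays of both genes were the higher ones. F5 read 4.59, 4.36, 4.28 and 4.39 on lactation day 9, against 3.58, 3.55, 3.64 and 3.41 on pregnancy day 12. Fgg read 4.44, 4.22, 4.38 and 4.43 on lactation day 9, against 3.67, 3.74, 3.80 and 3.60 on pregnancy day 12. Serpina10 read 4.41, 4.26, 4.54 and 4.68 on lactation day 9, against 3.88, 3.95, 3.63 and 3.65 on pregnancy day 12. None of these groups overlapped, and each passed the limit for testing only through the stages where it was highest.

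Probe sets that stayed below the line moved the same way. The 5179 probe sets below it in every mammary group were higher on lactation day 9 than on pregnancy day 12 by a median of 0.47, and 92.5% of them had a difference above 0. The 25 members among them had a median difference of 0.49 and all 25 were above 0, from 0.12 for F8a to 0.98 for Serpina5. Fgb, the fibrinogen beta chain, was one of them, at 4.22, 3.92, 4.11 and 4.10 on lactation day 9, against 3.35, 3.37, 3.41 and 3.27 on pregnancy day 12. The part of this common shift in the rises of F2, F5, Fgg, Serpina10, Serpina12 and Serpind1 was not tested. The shift was 0.19 for lactation day 2 against pregnancy day 17 and 0.16 for pregnancy day 17 against pregnancy day 12.

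**Figure D2:**
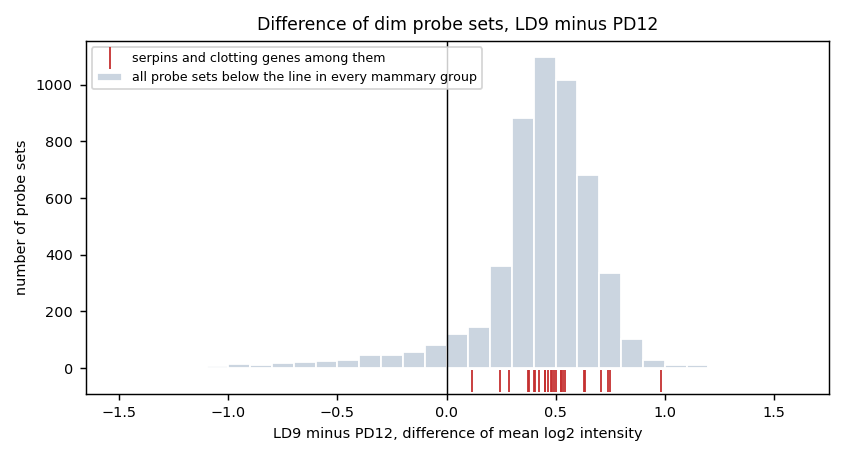
Difference in mean log2 intensity, lactation day 9 minus pregnancy day 12, for the 5179 probe sets below the line in every mammary group (grey bars, number of probe sets per bin of 0.1). Red ticks mark the 25 serpins and clotting genes among them, which run from 0.12 to 0.98 around a median of 0.49.

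Markers of other cell types moved over the same interval as Serping1, Serpinh1 and Serpinf1. Of 10 fibroblast markers, 10 were lower on lactation day 9, where 42.4% of all probe sets tested were lower, and their summed intensity was 1634 to 5519 on lactation day 9, against 19128 to 23170 on pregnancy day 12. The lowest of these sums was that of lactation day 9 replicate 1, the array that was also lowest for Serpinh1, Serpinf1 and Serping1. Macrophage markers were lower in 8 of 8 tested, with sums of 470 to 887 on lactation day 9 and 2285 to 3459 on pregnancy day 12. Adipocyte markers were lower in 7 of 7, with sums of 1116 to 1855 on lactation day 9 and 7277 to 11408 on pregnancy day 12. Endothelial markers were mixed, 2 higher and 6 lower of 9, with sums of 844 to 1000 on lactation day 9 and 1651 to 2045 on pregnancy day 12. Of 8 luminal epithelial markers 5 were lower, Krt8, Krt18, Krt19, Cldn3 and Cldn4, and 2 higher, the milk protein gene Csn2 and Elf5, with a median difference of -1.69. Their sum was 23363 to 27063 on lactation day 9 and 17231 to 20281 on pregnancy day 12. Myoepithelial markers were lower in 5 of 5 tested, with sums of 1006 to 1811 on lactation day 9 and 3054 to 4072 on pregnancy day 12. Their part in the changes of the serpins was not tested. Of the 11 hepatocyte markers measured, 7 were below the line on lactation day 9 and 10 on pregnancy day 12, and 3 of the 4 platelet markers were below it in every group.

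Other genes of the clotting and plasminogen pathways were read from a list of 36, of which 31 were measured and 21 tested over the stages. On lactation day 9 against pregnancy day 12, 13 were called higher and 6 lower, where 35.2% of all probe sets tested were higher and 42.4% lower. The median difference was 0.57 over these genes and -0.13 over all probe sets tested. Among the higher ones, Thbd, Vwf, Klkb1, Ggcx and Mug1 were below the line on pregnancy day 12, at 3.63 to 4.10. They were tested only through later stages, and the median takes their differences as they are and not as bounds. The part in these rises of the shift of 0.47 in probe sets below the line was not tested. The 6 lower ones included Anxa2 (difference -3.37) and S100a10 (-3.39), which together form a cell-surface receptor for plasminogen, Lrp1 (-3.27), the receptor that clears protease-serpin complexes, and Gas6 (-3.58) and Pros1 (-1.23), a pair of related vitamin K-dependent proteins. Vkorc1, the vitamin K epoxide reductase, was lower by 1.15 (limma, adjusted p = 1.45e-07). Among the higher ones were Lman1 and Mcfd2, the cargo receptor that carries factors V and VIII out of the endoplasmic reticulum. Mcfd2 averaged 10.14 on lactation day 9 and 8.83 on pregnancy day 12 (difference 1.31, limma, adjusted p = 5.96e-08), and Lman1 averaged 8.88 on lactation day 9 and 8.04 on pregnancy day 12 (difference 0.84, limma, adjusted p = 0.000111). Thbd, thrombomodulin, on which thrombin activates protein C, averaged 5.49 on lactation day 9 and 4.01, below the line, on pregnancy day 12 (limma, adjusted p = 3.08e-05).

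Between 40% and 8% dietary fat at lactation day 10, no member was called. Of 14 tested members, 0 were called in limma between 40% and 8% fat, where 0.0925% of the 6483 probe sets tested were called, 0.0463% higher and 0.0463% lower. At an unadjusted p under 0.05 there were 4, F5, Procr, Serpinb5 and Serpinh1, where 8.3% of all probe sets tested lay under it. The median difference was 0.01 over the members and 0.01 over all probe sets tested. With 3 arrays per diet, small differences were not detectable.

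Procr was the member called over the 3 diets. It read 6.25, 6.39 and 6.48 on 8% fat, 5.86, 5.69 and 5.55 on 16% and 6.89, 6.75 and 6.64 on 40%. The 3 groups did not overlap, and the lowest was the middle diet. Limma's F test gave an adjusted p of 0.0219, and 0.17% of all probe sets tested were called. The call was lost after median centring, where the adjusted p was 0.0867, with a replicate block, where it was 0.125, and without any one of 4 arrays: 40% replicate 1, 40% replicate 2, 16% replicate 2 or 16% replicate 3 (limma, adjusted p between 0.0594 and 0.0971). Between 40% and 8% fat alone the difference was 0.39 ± 0.11 (SE; limma, adjusted p = 0.343).

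Serpinb5 read 6.09, 6.35 and 6.07 on 40% fat, against 5.36, 5.65 and 5.54 on 8% fat. All 3 arrays on 40% fat were above all 3 on 8%, but the difference of 0.65 ± 0.12 (SE) was not called (limma, adjusted p = 0.134). Serpinh1 read 7.0, 6.79 and 6.89 on 40% fat, against 6.78, 6.32 and 6.10 on 8% fat. These groups did not overlap either, by a narrow margin, and the difference of 0.49 was not called (limma, adjusted p = 0.392). Serping1 read 6.08, 5.92 and 4.32 on 40% fat, against 5.92, 5.88 and 6.06 on 8% fat. A single array of the 40% group lay apart, and the difference of -0.51 had an SE of 0.39 (limma, adjusted p = 0.824).

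**Figure D3:**
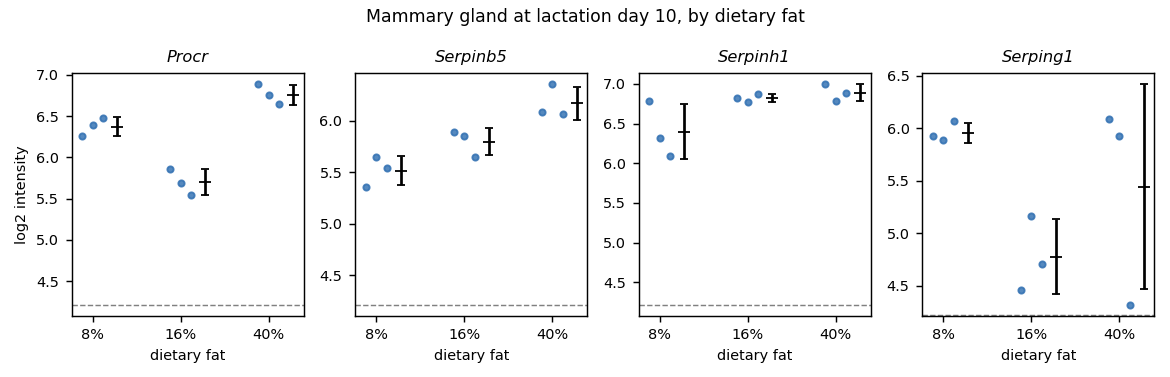
Log2 intensity of Procr, Serpinb5, Serpinh1 and Serping1 in the mammary gland at lactation day 10 on 8%, 16% and 40% fat. Points are arrays, 3 per diet, bars are mean ± SD and the dashed line is at 4.22. Procr was lowest on 16% fat at 5.55 to 5.86, and 1 of the 3 arrays on 40% fat had Serping1 at 4.32.

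In liver, most of these genes were far above their level in the gland. Of 35 tested members, 34 were called between liver and mammary gland on 8% fat, 28 higher and 6 lower, where 80.0% of the 6897 probe sets tested were called, 39.7% higher and 40.3% lower. For 23 members the gland was below the line and liver above it. For these a fold is given as a lower bound, the liver mean over the line, and it ran from 1.26 to 1843 with a median of 155. All 11 hepatocyte markers measured were higher in liver, with summed intensities of 136131 to 147436 in liver and 501 to 1271 in the gland.

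**Figure D4:**
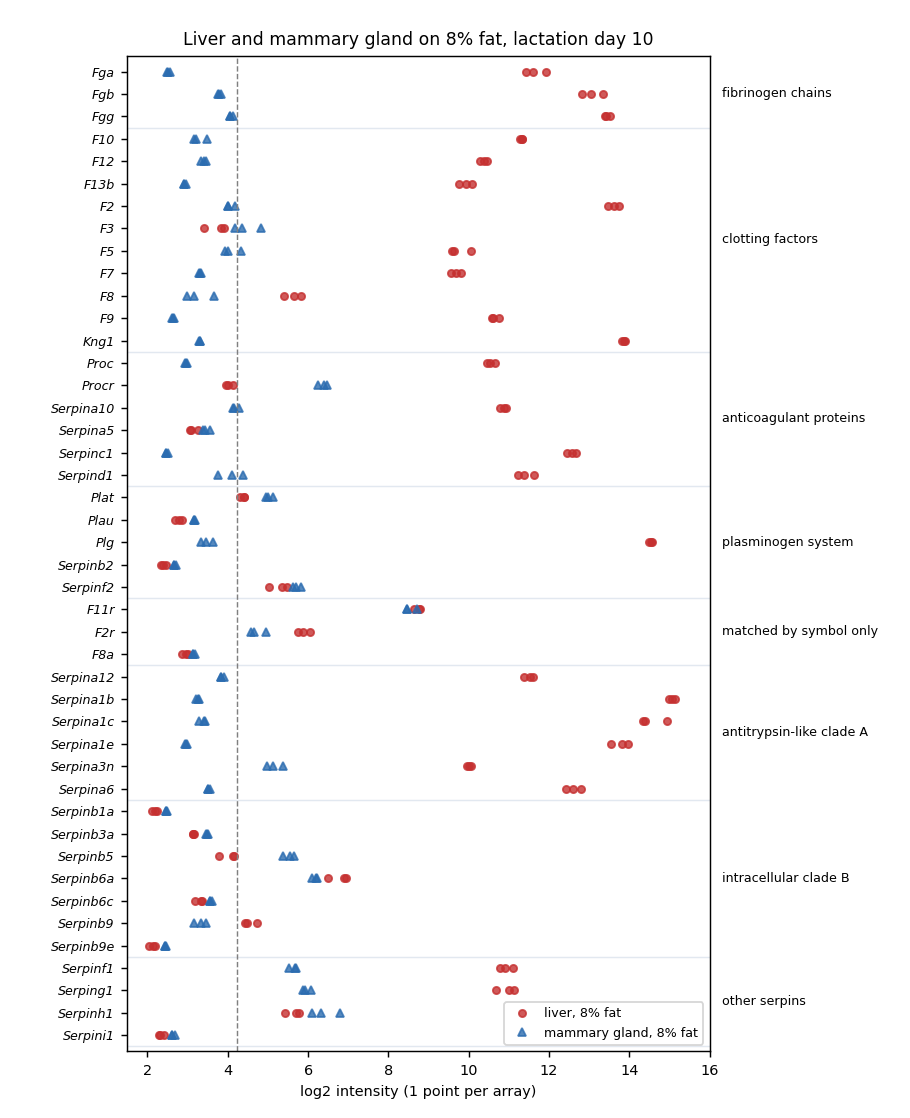
Log2 intensity of all 44 genes in liver (red circles) and mammary gland (blue triangles) on 8% fat at lactation day 10, grouped by role. Points are arrays, 3 per tissue, and the dashed line is at 4.22. The fibrinogen chains, most clotting factors and the antitrypsin family stood far to the right in liver, while Procr, Serpinb5 and Serpinh1 were higher in the gland.

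The 3 fibrinogen chains, which are joined into the precursor of fibrin, were all higher in liver. Fgb read 12.81, 13.04 and 13.35 in liver, against 3.84, 3.77 and 3.78 in the gland, at least 460-fold higher (limma, adjusted p = 6.25e-10). Fgg read 13.41, 13.51 and 13.39 in liver, against 4.13, 4.07 and 4.05 in the gland, at least 595-fold higher (limma, adjusted p = 7.55e-11). Fga was at least 173-fold higher. The gland arrays of all 3 chains lay below the line, so none of these folds has an upper limit from the data.

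Of the 10 clotting factors, 9 were higher in liver and F3 was lower. Kng1, kininogen, a cofactor of contact activation, read 13.80, 13.86 and 13.90 in liver, against 3.31, 3.29 and 3.30 in the gland, at least 797-fold higher (limma, adjusted p = 5.5e-11). F2 was at least 671-fold higher, F10 136-fold, F9 86.2-fold, F12 70.8-fold, F13b 52.0-fold, F5 45.5-fold and F7 44.1-fold. F8, factor VIII, read 5.64, 5.83 and 5.39 in liver, against 2.98, 3.16 and 3.66 in the gland, at least 2.64-fold higher (limma, adjusted p = 1.42e-05). F3 read 3.90, 3.84 and 3.42 in liver, against 4.83, 4.18 and 4.35 in the gland, with liver below the line and at least 1.18-fold lower (limma, adjusted p = 0.00937).

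Among the anticoagulant proteins, Serpinc1, antithrombin, read 12.57, 12.67 and 12.45 in liver, against 2.51, 2.47 and 2.47 in the gland, at least 325-fold higher (limma, adjusted p = 7.55e-11). Serpind1 was at least 140-fold, Serpina10 98.3-fold and Proc, protein C, 80.0-fold higher. A second Proc probe set averaged 2.05 in liver and 2.97 in the gland, below the line in both. The Proc bound therefore rests on 1 of 2 probe sets that do not behave alike. Procr was lower in liver, at 4.12, 4.01 and 3.96, against 6.25, 6.39 and 6.48 in the gland. Its liver arrays were all below the line, so it was at least 4.45-fold lower in liver (limma, adjusted p = 2.82e-07). Serpina5, the protein C inhibitor, was below the line in both tissues.

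Plg, plasminogen, read 14.57, 14.50 and 14.53 in liver, against 3.32, 3.46 and 3.62 in the gland, at least 1274-fold higher (limma, adjusted p = 7.81e-11). Plat was lower in liver, at 4.40, 4.30 and 4.40, against 5.12, 4.94 and 5.00 in the gland (difference -0.65, limma, adjusted p = 3.46e-04). Plau stayed below the line in both, at 2.80, 2.86 and 2.67 in liver and 3.18, 3.16 and 3.15 in the gland. Serpinf2 changed sign with the probe set. The one that is brighter over all arrays gave -0.43 (limma, adjusted p = 0.016), and the mean of both gave 4.08 (limma, adjusted p = 6.74e-09).

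All 6 antitrypsin-like serpins of clade A were higher in liver. Serpina1b, one of the mouse copies of alpha-1 antitrypsin, read 14.99, 15.07 and 15.14 in liver, against 3.29, 3.26 and 3.20 in the gland, at least 1843-fold higher (limma, adjusted p = 5.5e-11). Serpina1c read 14.33, 14.39 and 14.95 in liver, against 3.28, 3.42 and 3.40 in the gland, and was at least 1292-fold higher. Serpina1e read 13.80, 13.97 and 13.55 in liver, against 3.0, 2.96 and 2.93 in the gland, and was at least 752-fold higher. These copies are near identical, so their probe sets may each read several of them. Serpina6, corticosteroid-binding globulin, was at least 334-fold higher and Serpina12 at least 155-fold higher.

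A group of 3 secreted serpins were above the line in both tissues and higher in liver. Serpinf1 read 10.90, 11.10 and 10.78 in liver, against 5.52, 5.70 and 5.68 in the gland, 39.2-fold higher (limma, adjusted p = 4.64e-09). Serping1 read 10.68, 11 and 11.13 in liver, against 5.92, 5.88 and 6.06 in the gland, 31.6-fold higher (limma, adjusted p = 1.75e-08). Serpina3n read 9.94, 10.06 and 10.00 in liver, against 5.37, 5.12 and 4.98 in the gland, 28.7-fold higher (limma, adjusted p = 1.05e-08). None of these groups came near the other tissue. The second Serpinf1 probe set averaged 2.93 in liver and 3.25 in the gland, below the line in both. The Serpinf1 fold therefore rests on 1 of 2 probe sets that do not behave alike.

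Serpinh1 and Serpinb5 were lower in liver. Serpinh1 read 5.76, 5.69 and 5.42 in liver, against 6.78, 6.32 and 6.10 in the gland (difference -0.77, limma, adjusted p = 0.0053). Serpinb5 read 4.12, 3.77 and 4.16 in liver, all below the line, against 5.36, 5.65 and 5.54 in the gland (at least 2.46-fold lower in liver, limma, adjusted p = 2.46e-05). F2r was 2.23-fold higher in liver at the brightest of its 3 probe sets. With their mean it did not reach the line and was not tested. Serpinb9 was at least 1.26-fold higher. Serpinb6a was 1.52-fold higher in liver, a call lost after quantile normalization (limma, adjusted p = 0.12). F11r read 8.75, 8.78 and 8.63 in liver, against 8.70, 8.45 and 8.45 in the gland, with overlapping groups (difference 0.18, limma, adjusted p = 0.15), and its difference was -0.40 after quantile normalization.

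Genes with the same pattern were looked at for shared letters in their promoters, 300 bases around each RefSeq start site (250 before and 50 after, build GRCm38.p6). The table held 35 of the 44 genes, and the motifs were chosen after matches in these genes had been seen. The letters GTTAAT, known from sites of hepatocyte nuclear factor 1, stood on either strand in 6 of the 12 liver-only genes in the table and in 1 of the other 23, F2, and in 7.10% of all 32851 promoters. The liver-only genes with a match were F13b, Fga, Fgb, Serpina1b, Serpina1c and Serpina1e. The Serpina1 genes are copies with similar promoters, so theirs are not separate matches. Members were counted by gene, with a match in any of its promoters, while the shares of all promoters count each promoter. The letters TTGCNNAA of the C/EBP core stood in 6 of the 12 and 4 of the 23, and in 10.8% of all promoters. The GC box GGGCGG stood in 0 of the 12 and 11 of the 23, and in 35.7% of all promoters. The other 23 are not a set of genes low in liver. F5 and Serpina12, at least 45.5-fold and 155-fold higher in liver than in the gland, are among the 11. CTGGGA, a core known from interleukin-6 response elements, stood in 4 of the 12 and 9 of the 23, and in 31.8% of all promoters, and TTCNNNGAA, the STAT palindrome, in 3 of the 12 and 2 of the 23, and in 8.30% of all promoters. CTGGGA can lie inside TTCNNNGAA, as it does in F9, and a match is a description of letters.

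The fibrinogen chains lie side by side on chromosome 3, and their promoters are shown because the 3 genes were high in liver together while the searched letters differ between them. Capitals mark GTTAAT, or ATTAAC where it reads on the opposite strand. Fga (chr3:83025903-83026202, plus strand) holds it at bases -43 to -38 from the start and Fgb (chr3:83049814-83050113, minus strand) at -29 to -24. Fgg (chr3:83007474-83007773, plus strand) has no match in this window.
Fga: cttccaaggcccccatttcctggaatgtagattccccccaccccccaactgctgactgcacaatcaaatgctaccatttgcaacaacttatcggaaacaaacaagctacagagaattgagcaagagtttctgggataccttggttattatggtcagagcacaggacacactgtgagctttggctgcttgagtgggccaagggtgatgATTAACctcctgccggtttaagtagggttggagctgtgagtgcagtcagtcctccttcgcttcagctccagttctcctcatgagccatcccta
Fgb: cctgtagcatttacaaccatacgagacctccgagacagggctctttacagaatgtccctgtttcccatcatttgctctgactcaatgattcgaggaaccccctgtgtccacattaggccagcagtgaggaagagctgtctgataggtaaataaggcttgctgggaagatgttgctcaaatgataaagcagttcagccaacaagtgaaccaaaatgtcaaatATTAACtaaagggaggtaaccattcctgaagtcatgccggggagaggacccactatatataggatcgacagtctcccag
Fgg: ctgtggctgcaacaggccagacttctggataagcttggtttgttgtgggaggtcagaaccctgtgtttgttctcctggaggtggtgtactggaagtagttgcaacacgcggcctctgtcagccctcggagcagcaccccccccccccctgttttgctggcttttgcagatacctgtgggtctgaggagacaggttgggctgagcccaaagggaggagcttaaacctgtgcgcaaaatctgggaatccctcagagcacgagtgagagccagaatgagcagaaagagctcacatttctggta

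Serpina1b (chr12:103738140-103738439, minus strand) and Serpina1e (chr12:103956848-103957147, minus strand) on chromosome 12 are shown as copies of a gene. Both hold GTTAAT in capitals on the gene's own strand, at bases -26 to -21 from the start in Serpina1b and -78 to -73 in Serpina1e. Shifted by 52 bases against each other and compared without gaps, the promoters were identical at 78.6% of 248 bases. Serpina1b has a longer run of alternating g and a than Serpina1e, so the bases before that run were compared out of step. The share therefore understates how alike the promoters are. Serpina1c and Serpina1e, also compared without gaps, were identical at 95.2% of 249 bases.
Serpina1b: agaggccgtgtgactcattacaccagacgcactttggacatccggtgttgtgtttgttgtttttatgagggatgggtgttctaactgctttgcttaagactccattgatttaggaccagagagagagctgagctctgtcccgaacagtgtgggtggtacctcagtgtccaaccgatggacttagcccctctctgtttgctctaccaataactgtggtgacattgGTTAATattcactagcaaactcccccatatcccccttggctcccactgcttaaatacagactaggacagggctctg
Serpina1e: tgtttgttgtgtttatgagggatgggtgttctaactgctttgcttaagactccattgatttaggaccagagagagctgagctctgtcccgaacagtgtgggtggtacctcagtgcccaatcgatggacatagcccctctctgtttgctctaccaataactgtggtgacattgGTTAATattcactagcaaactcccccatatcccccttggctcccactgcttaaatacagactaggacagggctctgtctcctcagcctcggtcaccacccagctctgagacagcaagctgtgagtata

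Serpinh1 (chr7:99353190-99353489, minus strand) is shown for contrast, as the gene with the second largest fall in the gland and a lower level in liver. Capitals mark GGGCGG.
Serpinh1: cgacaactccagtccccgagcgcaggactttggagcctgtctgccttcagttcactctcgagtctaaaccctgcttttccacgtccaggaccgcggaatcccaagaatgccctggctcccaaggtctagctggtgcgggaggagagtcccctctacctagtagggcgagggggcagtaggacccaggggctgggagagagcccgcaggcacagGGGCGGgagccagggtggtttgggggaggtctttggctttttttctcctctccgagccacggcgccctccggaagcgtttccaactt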

How the data were processed

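RNA of 20 mammary arrays on chow, 9 mammary arrays on 3 diets and 3 liver arrays was measured on Affymetrix arrays of 12488 probe sets. The authors deposited 1 table of normalized intensity on a linear scale, made with GCRMA per the submitters' processing notes; no source used here gives its version or settings. Values were floored at 1, which 208 lay below, and taken to log2 with no further normalization. Symbols came from the array's annotation: 10833 of the 12422 probe sets that are not controls named 1 gene, 396 several and 1193 none.

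Each of the 3 fits (20 stage arrays, 9 diet arrays, 6 tissue arrays) used limma 3.58.1 in R 4.3.3 with moderated variances, on probe sets whose highest group mean reached the median of all values. Calls were made at a Benjamini-Hochberg adjusted p under 0.05 over all probe sets tested. The procedure was tested on simulated data. Values per array were given for called members without overlap, up to 6 in each direction, and for Serpinh1, Serpinf1, Serping1, Plat, Plau, F3, Procr, Fgb and the Serpina1 genes. Members and lists were chosen with earlier results of these data known. Alternatives were no filter, a filter at the 75th percentile, quantile normalization, median centring, log2(value + 16), each gene's mean over its probe sets, a replicate block, only the groups compared, and each array left out. Leaving out lactation day 1 replicate 1, the array farthest from its group mates, was chosen after seeing the data. Promoter sequences are from RefSeq, GRCm38.p6.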

Additional observations from a re-analysis of the deposited data

Results flagged for a closer look

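In 65 sets of 4 values, each of 1 gene in 1 stage, 5 values lay far from the other 3 of their set. Chance marks about 1 in 20 separate sets, but these sets share arrays and are not separate. Serpinf1 was at 4.73 in lactation day 9 replicate 1, with the others between 5.98 and 6.24. F11r was at 8.35 in lactation day 2 replicate 2, with the others between 7.91 and 7.92. Serpinb6a was at 7.14 in the same array, with the others between 6.55 and 6.64. Procr was at 4.52 in lactation day 1 replicate 1, with the others between 4.86 and 4.90. Serpinf2 was at 5.22 in lactation day 1 replicate 3, with the others between 5.55 and 5.61.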

How the results depend on the processing

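The number of members called moved with the filter, since it sets which members are tested. With no filter, limma called 30 on pregnancy day 17 against 12, 31 on lactation day 2 against pregnancy day 17, 10 on lactation day 9 against 2, 42 on lactation day 9 against pregnancy day 12, and 42 over all stages. At the 75th percentile, where fewer members were tested, it called 4 on pregnancy day 17 against 12, 6 on lactation day 2 against pregnancy day 17, 7 on lactation day 9 against pregnancy day 12 and 7 over all stages. Quantile normalization left 7 on lactation day 2 against pregnancy day 17. Leaving out 1 array at a time gave 8 to 12 on pregnancy day 17 against 12, 8 to 12 on lactation day 2 against pregnancy day 17, 2 to 11 on lactation day 9 against 2, 16 to 18 on lactation day 9 against pregnancy day 12, 17 to 19 over all stages, 0 between 40% and 8% fat, 0 to 1 over the diets, and 33 to 34 between liver and gland. Over the diets, median centring left 0 and the replicate block 0. Deviations of same-numbered arrays from their group means had correlations of -0.24 to 0.28. With 3 or 4 arrays per group these cannot tell whether the numbers pair animals or batches. With the replicate block, the other counts were 12, 11, 6, 17, 18, 0 and 34, in the order above. Of 1824 gene results under alternatives, 1732 stayed on their side of the threshold, 60 lost a call and 30 gained one. A further 2, called in at least 1 of the settings compared, changed sign. They were F11r in liver after quantile normalization (-0.40) and Serpinf2 in liver with the mean of its probe sets (4.08). The cause was not tested. For results called in neither setting the sign was not compared. Where 1 group lies below the line a difference is given as a bound, and 3 or 4 arrays per group limit what could be detected.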

Other observations

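Some members differed in level between the chow series at lactation day 9 and the diet series at lactation day 10, groups that differ in day and feed and that were not compared by a test. Procr was at 5.55 to 6.89 in the 9 diet arrays and 5.04 to 5.30 in the 4 chow arrays. F11r was at 8.36 to 9.06 in the diet arrays and 7.29 to 7.86 in the chow arrays. Serpinf1 was at 5.16 to 6.11 in the diet arrays and 4.73 to 6.24 in the chow arrays, which overlap.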
